A study of Mus musculus with 2 samples.

Results

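ATP synthase and the carriers that supply it were read from 2 long-read RNA libraries of adrenal gland from 10-day-old female mice of the strain B6CASTF1/J. The genes were all annotated genes with a symbol that starts with Atp5 or Slc25a, without symbols that contain -ps, and their reads were summed over all transcript models of a gene. This gave 59 genes, 17 Atp5 and 42 Slc25a, of 18159 annotated genes with at least 1 read. The labels put both libraries in 1 group, biological replicates 1 and 2, with no treatment, genotype contrast, other tissue or other age. B6CASTF1/J mice are first-generation offspring of a C57BL/6J and a CAST/EiJ parent, so both parental alleles of each nuclear gene are present and were not separated in the counts. The library labels name animal 03 for both replicates, while the tissue labels name animal 03 for replicate 1 and 04 for replicate 2, and the donor identifier is the same. Whether 1 or 2 animals were sampled is not clear from the labels, and every p-value below compares the reads of 2 libraries, not conditions.

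The mitochondrial ATP synthase is a rotary enzyme: protons that return through a ring of c subunits in the inner membrane turn a central stalk, and the turning stalk drives ATP synthesis in the F1 head. Nearly all of its subunits are encoded in the nucleus, and a few in the mitochondrial genome. The SLC25 family forms the transporters of the inner membrane, built from a repeated pair of membrane helices, and moves ADP, ATP, phosphate, organic acids, amino acids and cofactors. In the adrenal cortex the mitochondria also hold the first and last steps of steroid hormone synthesis.

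Replicate 1 held 593058 reads and replicate 2 held 772037 reads outside the ERCC spike-ins, and these totals are the base of every CPM value (counts scaled to the library total). The limit that 0 reads allow (3 counts) was 5.06 CPM in replicate 1, and 3.89 CPM in the deeper replicate 2. Such limits, and the 95% intervals below (exact Clopper-Pearson), cover counting error only. The tissue markers differed between the libraries. All 7 adrenal cortex markers (Star, Cyp11a1, Cyp21a1 and others) were present in both libraries, with a sum of 16884 CPM in replicate 1 and 20774 in replicate 2. Liver markers summed to 8368 and 1304 CPM, striated muscle markers to 10697 and 3416 CPM and brown fat markers to 10249 and 15464 CPM in replicates 1 and 2. Kidney markers had 0 reads in replicate 1 and 484 reads in replicate 2. The libraries are bulk tissue, in which fewer cells of a type and less RNA per cell cannot be told apart.

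The 59 genes took 14826 reads in replicate 1 and 22093 reads in replicate 2, which is 2.50 and 2.86% of the reads. The 17 Atp5 genes summed to 20057 ± 2305 CPM and the 42 Slc25a genes to 6751 ± 252 CPM (SD, n = 2 libraries). All Atp5 genes were detected in both libraries with at least 5 reads each. Of the Slc25a genes 32 reached 5 reads in each library, and Slc25a40, a glutathione carrier, had 0 reads in replicate 1 and 6 reads in replicate 2. The lowest levels were those of Slc25a18, Slc25a43 and Slc25a48, with 1 read in each library.

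**Figure D1:**
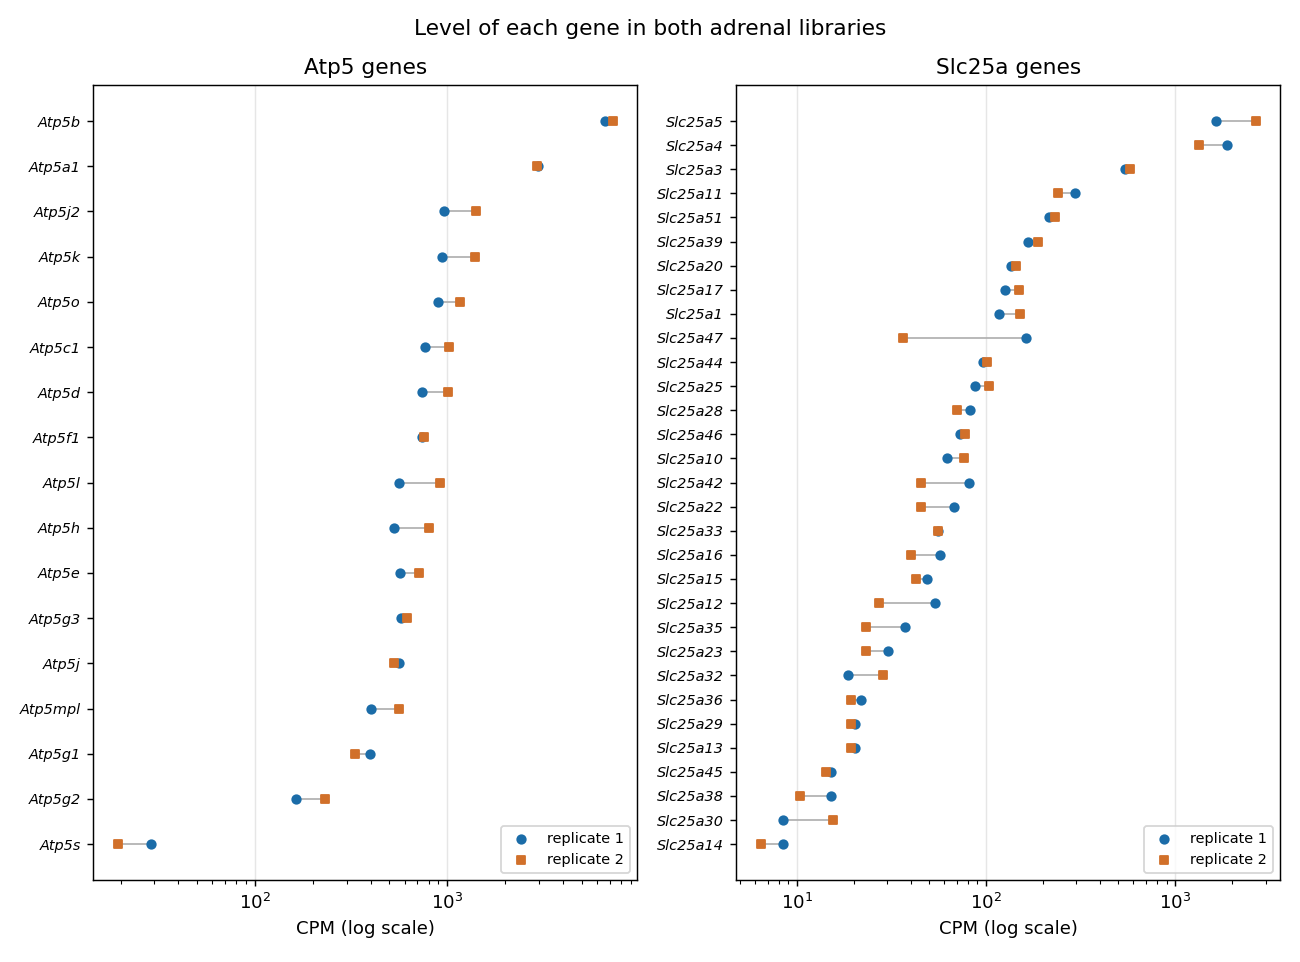
Level of 48 of the 49 members that reached 5 reads in both libraries (CPM, log axis), Atp5 genes on the left and Slc25a genes on the right, with replicate 1 as circles and replicate 2 as squares. Atp5b leads with 6635 and 7263 CPM in replicates 1 and 2, and Slc25a47 has the widest gap, 162 CPM in replicate 1 against 36.3 CPM in replicate 2.

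The F1 head carried the most reads. Atp5b, the catalytic beta subunit (chr10:128083273-128090391, plus strand), had 6635 CPM in replicate 1 and 7263 in replicate 2, and ranked 2 of 18159 annotated genes by mean CPM. Atp5a1, the alpha subunit, followed with 2959 and 2921 CPM and ranked 16. Atp5c1, the gamma subunit of the central stalk, had 769 CPM in replicate 1 and 1026 in replicate 2. Atp5d, the delta subunit, had 739 and 1013 CPM, and Atp5e, the epsilon subunit, had 567 and 718 CPM. Alpha and beta, which alternate in the head, thus had the highest CPM of the Atp5 genes.

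Levels of different genes were also set per kb of the most-read spliced model of each. On that scale Atp5b remained first, with 3627 CPM per kb, followed by Atp5k with 3143 CPM per kb, and the replicate values of this pair overlapped. Atp5k encodes the small membrane subunit e, and its model has 371 bases. Atp5a1, with a model of 2471 bases, moved from rank 2 to rank 10 at 1190 CPM per kb. Of the 10 genes with the highest CPM, 6 were also among the 10 highest per kb. The next places per kb went to Slc25a5 (1736), Atp5e (1525), Atp5l (1364) and Atp5mpl (1317 CPM per kb). Neighbours in this order from Atp5l to Atp5a1 lay between 1364 and 1190 CPM per kb, and their replicate values overlapped.

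The stalk subunits stood close together. Atp5o, which links the head to the peripheral stalk, had 899 CPM in replicate 1 and 1172 in replicate 2. Atp5f1 (subunit b) had 739 and 755 CPM, Atp5h (subunit d) 529 and 804 CPM, and Atp5j (coupling factor 6) 565 and 527 CPM. The Atp5o reads come from 2 gene identifiers that share the symbol, and the gene span overlaps Cryzl1 on the same strand, which had 32 and 44 reads. The small membrane subunits, which shape the dimer of the enzyme, were Atp5j2 (subunit f) with 961 and 1413 CPM, Atp5k with 941 and 1391 CPM, Atp5l (subunit g) with 561 and 922 CPM and Atp5mpl, a small proteolipid, with 403 and 561 CPM. Each of these 4 genes was lower in replicate 1. Atp5s, the gene of coupling factor B, was grouped apart from the subunits and had 17 and 15 reads.

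Subunit c, the proton-carrying ring, is made from 3 genes. Atp5g3 had 573 CPM in replicate 1 and 620 in replicate 2, Atp5g1 had 395 and 330 CPM, and Atp5g2 had 164 and 231 CPM. By reads assigned to the genes themselves, the order of Atp5g3, Atp5g1 and Atp5g2 was the same in both libraries. The coding stretch of the mature subunit, the last 75 codons, is shown for the 3 genes, because the 3 genes encode the same mature protein with it (GENCODE M21 transcripts, mm10, minus strand of chromosomes 11, 15 and 2). Capitals mark the bases at which the 3 genes are not identical.
Atp5g1: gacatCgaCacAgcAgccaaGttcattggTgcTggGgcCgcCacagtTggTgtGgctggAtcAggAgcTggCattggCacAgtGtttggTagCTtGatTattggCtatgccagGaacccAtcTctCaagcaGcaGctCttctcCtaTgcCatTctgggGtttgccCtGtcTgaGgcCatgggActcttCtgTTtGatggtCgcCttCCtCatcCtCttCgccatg
Atp5g2: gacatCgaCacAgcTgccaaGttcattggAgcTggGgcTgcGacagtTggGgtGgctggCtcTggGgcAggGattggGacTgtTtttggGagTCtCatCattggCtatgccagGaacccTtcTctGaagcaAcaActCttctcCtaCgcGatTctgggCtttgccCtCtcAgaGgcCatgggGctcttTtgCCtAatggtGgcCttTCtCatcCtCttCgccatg
Atp5g3: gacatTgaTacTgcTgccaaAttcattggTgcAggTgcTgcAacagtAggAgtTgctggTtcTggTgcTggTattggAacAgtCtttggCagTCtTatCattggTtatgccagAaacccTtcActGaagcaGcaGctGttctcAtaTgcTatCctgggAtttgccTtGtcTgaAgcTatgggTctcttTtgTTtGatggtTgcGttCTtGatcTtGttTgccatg
The stretches differ at 57 of 225 bases, 52 of them at the third base of a codon, and translate to the same residues. Atp5g1 and Atp5g2 are 84.9% identical here, Atp5g2 and Atp5g3 78.7%, and Atp5g1 and Atp5g3 match at 180 bases. The leader that precedes the stretch is 52.2 to 56.8% identical between the genes.

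Intronless copies of the Atp5 genes also took reads. Annotated pseudogenes that match a member's coding sequence over at least 80% of its length at 90% identity or more numbered 31 for 9 Atp5 genes and 7 for 3 Slc25a genes. Reads lay on 9 of the 31 copies of Atp5 genes, 242 in replicate 1 and 449 in replicate 2, and on 1 of the 7 copies of Slc25a genes, with 0 and 1 read. The copies with most reads, named here after their values were seen, were 2 copies of Atp5g2 that match its 441 coding bases at 100% identity. Gm10175 (chr7:23946646-23947290) had 87 reads in replicate 1 and 143 in replicate 2, and Gm10231 (chr17:5816200-5816640) had 55 and 169 reads. Atp5g2 itself had 97 and 178 reads. Together the copies thus held more reads than the gene in both libraries, and every read on them was single-exon. Gm10221, a copy of Atp5l at 100% identity, had 55 and 81 reads beside 333 and 712 reads of Atp5l. Gm10250, a copy of Atp5h at 99.0% identity, had 26 and 43 reads beside 314 and 621 reads of Atp5h. Gm10039, a copy of Atp5g1 at 99.8% identity, had 13 and 10 reads. With its copies counted in, Atp5g2 had 403 CPM in replicate 1 and 635 in replicate 2. The own reads of Atp5g1 gave 395 and 330 CPM, and those of Atp5g3 573 and 620 CPM. In replicate 2 the order given for the 3 genes then did not hold, since Atp5g2 came first. In replicate 1 Atp5g2 passed Atp5g1 only while the 13 reads of Gm10039 were left out of Atp5g1. With the copies of both Atp5g2 and Atp5g1 counted in, the subunit c genes summed to 1496 CPM in place of 1156 CPM. The coding sequence cannot tell Atp5g2 or Atp5l from an identical copy, and their levels are uncertain by these amounts. The copies of Atp5h and Atp5g1 are near-identical, and whether reads were assigned to the wrong one of a gene and its copy was not tested. The 6 pseudogenes that carry Atp5 or Slc25a names with -ps had 5 reads in replicate 1 and 2 reads in replicate 2.

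**Figure D2:**
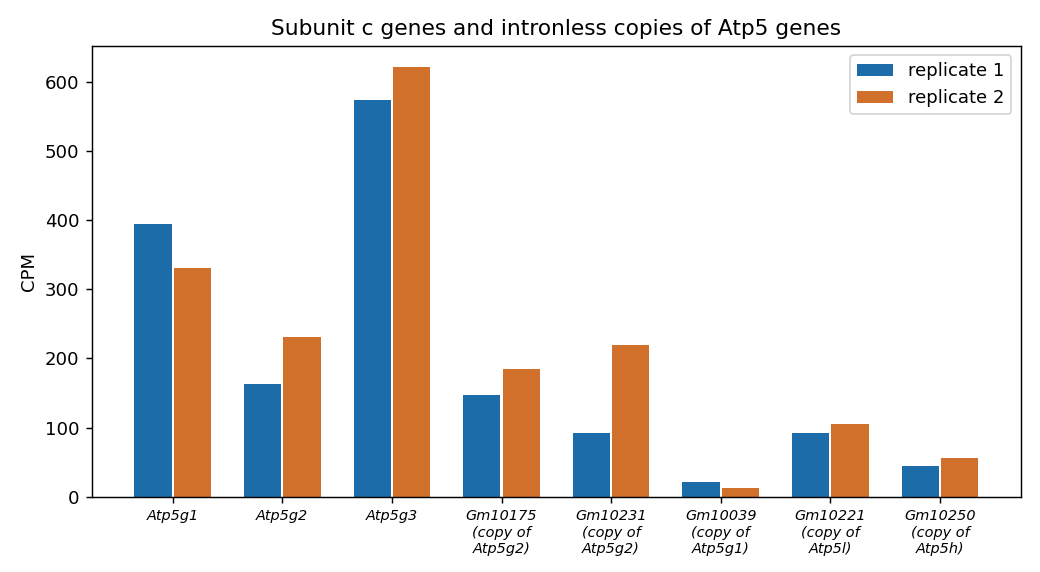
CPM of the 3 subunit c genes and of 5 intronless annotated copies of Atp5 genes, replicate 1 on the left and replicate 2 on the right of each pair. The 2 copies of Atp5g2 together stand at 239 CPM in replicate 1 and 404 CPM in replicate 2, above the gene's 164 and 231 CPM.

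Among the Slc25a genes, the carriers that exchange ADP for ATP came first. Slc25a5 (chrX:36795651-36798807), the form of most growing tissues, had 1644 CPM in replicate 1 and 2662 in replicate 2. Slc25a4 (chr8:46206797-46211284), the form known from heart and skeletal muscle, had 1883 and 1338 CPM. The order of the pair was therefore opposite in the 2 libraries when all reads of a gene were counted. It turned on single-exon reads of Slc25a5. On the most-read annotated transcript of each gene Slc25a4 had 872 and 815 reads and Slc25a5 400 and 734 reads. By these reads Slc25a4 was higher in both libraries. Their coding sequences match at 701 of 897 bases (77.6%). Slc25a3, the phosphate carrier, had 545 and 576 CPM. The ATP-Mg/phosphate carriers were lower, with 87.7 and 104 CPM for Slc25a25, 18 and 18 reads for Slc25a23 and 5 and 1 reads for Slc25a24.

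Carriers of organic acids, amino acids and cofactors lay below the phosphate carrier in CPM. Slc25a11, the oxoglutarate/malate carrier, had 295 and 241 CPM, Slc25a1, the citrate carrier, 116 and 150 CPM, and Slc25a10, the dicarboxylate carrier, 62.4 and 76.4 CPM. Slc25a20, which brings acylcarnitines to fatty acid oxidation, had 135 and 144 CPM. Of the amino acid carriers, Slc25a44 (branched-chain amino acids) had 96.1 and 101 CPM, Slc25a22 (glutamate) 67.4 and 45.3 CPM, and Slc25a15 (ornithine) 48.9 and 42.7 CPM. The aspartate/glutamate carriers Slc25a12 and Slc25a13 had 32 and 12 reads in replicate 1 and 21 and 15 reads in replicate 2. Of the cofactor carriers, Slc25a51 (NAD) had 214 and 231 CPM. Slc25a39, a glutathione carrier, had 167 and 188 CPM, while its relative Slc25a40 had the 6 reads of replicate 2 given above. Of the iron carriers, Slc25a28 had 82.6 and 69.9 CPM and Slc25a37, known from red cell precursors, had 8 and 3 reads. Slc25a17, a carrier of the peroxisome, had 126 and 149 CPM, and Slc25a42, which carries coenzyme A, 80.9 and 45.3 CPM. The pyrimidine nucleotide carriers Slc25a33 and Slc25a36 had 33 and 13 reads in replicate 1 and 43 and 15 in replicate 2. Slc25a46, an outer membrane protein of the family, had 72.5 and 77.7 CPM. The amino acid carriers Slc25a29 (basic amino acids) and Slc25a38 (glycine) stayed under 21 CPM in both libraries, and Slc25a26 (S-adenosylmethionine) had 4 and 6 reads.

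Reads of each gene were then set between the libraries by an exact binomial test, two-sided, with Benjamini-Hochberg adjustment over 10563 genes that had 10 or more reads summed. A call needed an adjusted p under 0.05 together with a 2-fold ratio. It called 1 of the 51 members tested, 0 of 17 Atp5 and 1 of 34 Slc25a genes, beside 3.89% of all genes (2.9% higher and 0.994% lower in replicate 1). Of 59 members 8 had too few reads for the test, and a gene could pass that filter through reads of 1 library. Slc25a47 (chr12:108836046-108856815), a carrier known from liver, had 96 reads in replicate 1 and 28 reads in replicate 2, a ratio of 4.41 (95% interval 2.90 to 7.06, adjusted p = 1.73e-12). It was also called by edgeR's exact test with a common dispersion (adjusted p = 0.045). All 8 liver markers (Alb, Apoa1, Apoa2, Ttr, Fgb, Serpina1c, Cyp3a11, Afp) were called higher in replicate 1 as well, 8368 against 1304 CPM in sum, with none at 0. Their part in the Slc25a47 ratio was not tested.

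Without the fold minimum, 13 members had an adjusted p below 0.05, beside 7.41% of all genes. Of these, 11 were lower in replicate 1 (background 3.85%) and 2 were higher (background 3.56%). The lower ones were 10 of the 17 Atp5 genes and Slc25a5. Without a fold minimum, small differences pass more easily in genes with many reads. All Atp5 genes but Atp5s lay within the first 866 of 18159 genes by mean CPM. The background holds genes down to 10 reads summed and was not matched for reads, so it gives no measure of an Atp5 excess. Among the Atp5 genes the widest difference was that of Atp5l, which had 333 reads in replicate 1 and 712 in replicate 2, a ratio of 0.61 (0.53 to 0.69, adjusted p = 1.78e-12). Atp5h had a ratio of 0.66, Atp5k and Atp5j2 of 0.68, and Atp5b, with the narrowest interval, of 0.91 (0.88 to 0.95, adjusted p = 0.00044). Slc25a5 had a ratio of 0.62 (0.57 to 0.67, adjusted p = 2.06e-34), and Slc25a4 one of 1.41 (1.29 to 1.53, adjusted p = 2.31e-13). When the spread between the libraries entered the test (edgeR, common dispersion, biological coefficient of variation 0.251), only Slc25a47 of these 13 kept an adjusted p below 0.05. The median log2 ratio was -0.38 over the Atp5 genes, 0.07 over the Slc25a genes tested and 0.04 over all genes.

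Several measures moved with these ratios. Ratios were below 1 for 13 of the 17 Atp5 genes, 10 of them with an adjusted p below 0.05, beside 5020 of all 10563 genes. They were also below 1 for all 6 brown fat markers, which include the uncoupling protein Ucp1 (10249 against 15464 CPM in sum, none at 0), 5 of them with an adjusted p below 0.05 and 0 called. All 7 adrenal cortex markers likewise had ratios below 1 (16884 against 20774 CPM in sum, none at 0), 4 with an adjusted p below 0.05 and 0 called. All 5 kidney markers were called lower in replicate 1, where each was at 0. The 6 chromaffin markers were mixed, with 4 ratios below 1, 2 above 1 and 0 called. All 9 striated muscle markers were higher in replicate 1, as was Slc25a4, and 3 of them (Tnnc1, Myh7, Myl2) were at 0 in replicate 2. All 3 red cell markers had ratios above 1, with 0 called. Model length moved with the ratio too. The median log2 ratio of all genes was -0.36 for models up to 500 bases, -0.39 from there to 750 bases, and 0.21 above 3000 bases. The 12 Atp5 genes with models up to 1000 bases had medians of -0.41, -0.49 and -0.46 in the 3 length classes, beside -0.36, -0.39 and -0.32 for all genes in them. Among genes with 500 or more reads summed, the Atp5 medians in these classes were -0.41, -0.60 and -0.46, beside -0.50, -0.44 and -0.48 for all such genes, so that the Atp5 genes were lower in 1 of the 3 classes. The median of such genes above 3000 bases was -0.0068. Atp5a1, with the longest Atp5 model, had a log2 ratio of 0.02 beside a median of 0.04 in its class. Across genes, Spearman's rho between model length and log2 ratio was 0.36 over 17 Atp5 genes, 0.02 over 34 Slc25a genes and 0.29 over 10114 genes, values that describe these 2 libraries only. The part of tissue markers and of length in the ratios was not tested.

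**Figure D3:**
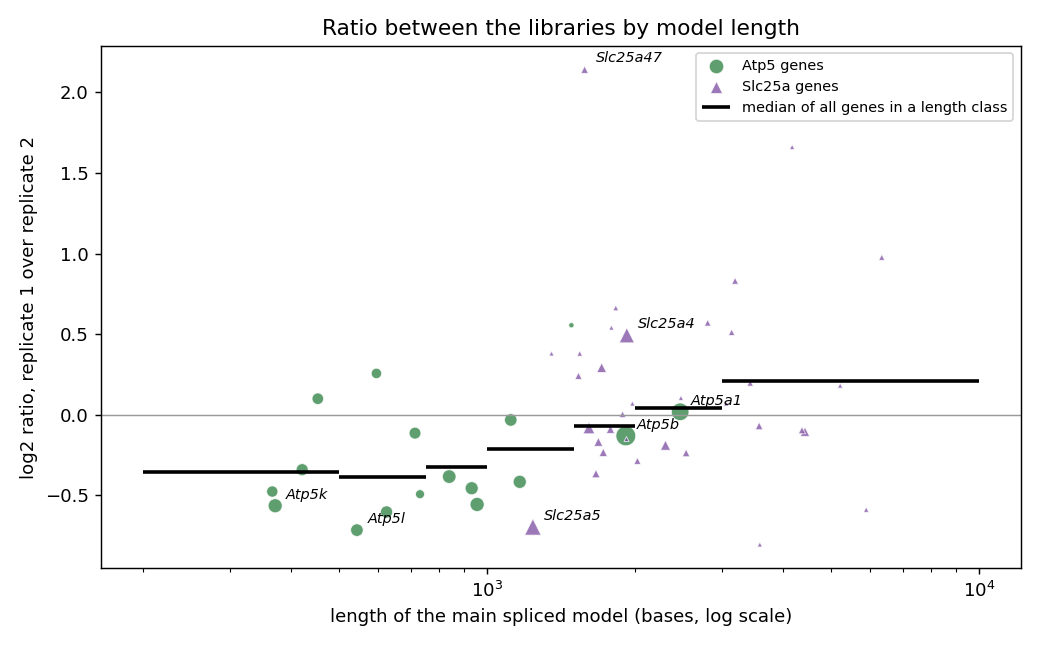
Log2 ratio of replicate 1 over replicate 2 against the length of the main spliced model (bases, log axis), for 17 Atp5 genes (circles) and 34 Slc25a genes (triangles), with larger symbols for more reads. Black lines give the median of all genes in 7 length classes, which runs from -0.36 for the shortest to 0.21 for the longest models, and 13 of the 17 Atp5 genes lie below 0.

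Genes that work beside the members were read for comparison. Usmg5, a further small subunit of the enzyme, had 431 reads in replicate 1 and 802 in replicate 2, and Atpif1, the inhibitor of its reverse reaction, had 133 and 258 reads. Both had an adjusted p below 0.05 in the exact binomial test but less than a 2-fold difference. The assembly factors had 125 and 187 reads for Atpaf2, 165 and 267 for Tmem70 and 18 and 35 for Atpaf1. Of the 9 partners tested, 1 was called: the mitochondrially encoded subunit mt-Atp6, with 150 and 69 reads (ratio 2.82, adjusted p = 7.94e-12). In both libraries 0 reads were assigned to mt-Atp8. Whether reads assigned to mt-Atp6 also hold the mt-Atp8 sequence was not examined, so the 0 does not show that its RNA is absent. Of 5 family carriers under other names 0 were called, and 2 of the 5 (Ucp1 and Mtch2) had an adjusted p below 0.05. Ucp1 was the highest of them, with 2192 CPM in replicate 1 and 3018 CPM in replicate 2, above the CPM of both ADP/ATP carriers in both libraries. Per kb of model length, Ucp1 had 1340 CPM in replicate 1 and 1845 in replicate 2, against 1326 and 2147 for Slc25a5. On that scale Slc25a5 was the higher of the 2 in replicate 2. Among 12 further transport genes tested, 1 was called: Ckmt2, the creatine kinase of muscle mitochondria, with 82 and 9 reads. Over all genes 3.89% were called, and 7.41% had an adjusted p below 0.05 in the exact binomial test. Lists this small do not allow a comparison with these shares.

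Transcript models were then compared. A model is called annotated when its splice junctions match a GENCODE transcript in full, and an incomplete splice match when it holds a consecutive part of them. Of the Atp5 reads, 72.1% in replicate 1 and 75.6% in replicate 2 lay on annotated transcripts, 23.5 and 21.1% on spliced incomplete matches and 2.66 and 1.82% on single-exon models. For all annotated genes the incomplete matches took 10.4 and 8.50%, and single-exon models 14.5 and 12.0%. Of the Slc25a reads, 67.3 and 62.2% lay on annotated transcripts, 3.59 and 1.85% on spliced incomplete matches and 25.2 and 31.7% on single-exon models.

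**Figure D4:**
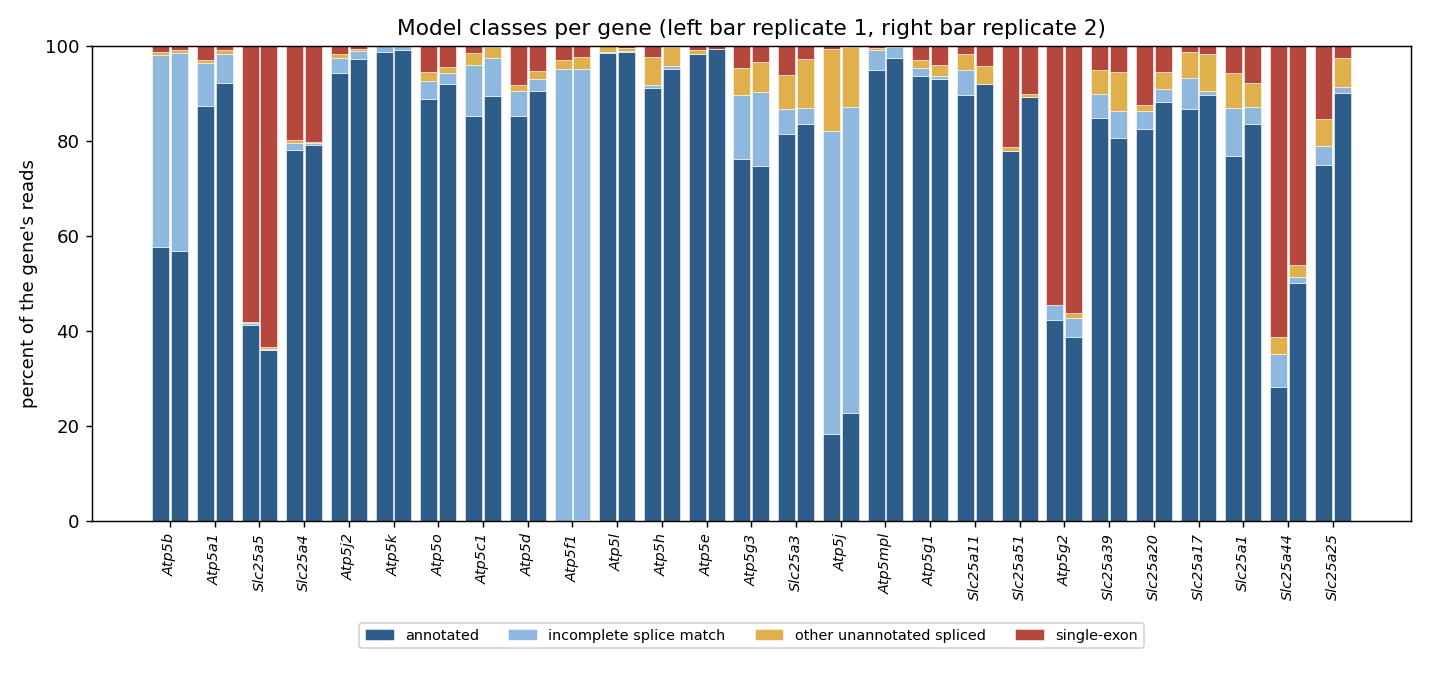
Percent of each gene's reads on annotated transcripts, spliced incomplete matches, other unannotated spliced models and single-exon models, for 27 of the 28 members that had 50 reads or more in both libraries, ordered by mean CPM, with replicate 1 as the left bar and replicate 2 as the right bar. Incomplete matches stand out in Atp5b, Atp5f1 and Atp5j, and single-exon reads in Slc25a5, Slc25a44 and Atp5g2.

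The incomplete matches came mainly from 3 genes. In Atp5b, a model of the last 2 exons (chr10:128089041-128090272, 372 bases) held 1372 reads in replicate 1 and 2141 in replicate 2, which is 34.9 and 38.2% of the gene's reads. The full 10-exon transcript held 2237 and 3167 reads. Of the spliced Atp5b reads that cross the last intron, 58.0 and 57.4% carried 10 exons, 35.4 and 38.5% carried 2, and each number of exons in between took at most 1.93%. In Atp5f1, a 7-exon incomplete match held 82.6 and 86.6% of the reads, while in Atp5j a 4-exon one held 58.2 and 55.3%. The shares of the 2 libraries lay within 4 percentage points of each other in each of the 3 genes.

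Of 37 unannotated spliced models with at least 5 reads in both libraries, 31 were incomplete matches. The other 6 included a combination of annotated splice sites in Slc25a22, with 9 and 12 reads (22.5 and 34.3% of the gene), and one in Slc25a28, with 10 and 11 reads (20.4% of the gene in each library). In Slc25a3 such a model had 8 and 15 reads.

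In the other Atp5 genes 1 annotated transcript usually dominated. Atp5k, Atp5l and Atp5e had 97.0, 97.3 and 96.7% of their reads on it in replicate 1, and 98.0, 96.2 and 98.9% in replicate 2. Atp5g1 was split between a transcript of 596 bases, with 65.8 and 53.3% of its reads, and one of 4715 bases with 25.2 and 38.0%. The share of the shorter one differed by 12.5 percentage points with an adjusted p of 0.10 (Fisher's exact test). Atp5g3 had 53.8 and 53.4% of its reads on one transcript and 22.1 and 20.9% on another.

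Single-exon reads of the carriers lay mostly in the ADP/ATP pair. In Slc25a5 they were 567 of 975 reads in replicate 1 (58.2%, 55.0 to 61.3) and 1304 of 2055 reads in replicate 2 (63.5%, 61.3 to 65.5). In Slc25a4 they were 19.9 and 20.2% of the reads. Without this pair, single-exon reads were 10.8% of the Slc25a reads in replicate 1 and 8.09% in replicate 2. The Slc25a5 reads are listed under 1 model of 3154 bases that spans the whole gene in replicate 1, and under 1 model of 255 bases inside the last exon in replicate 2. In Slc25a44, 34 and 36 reads stand under a model of 2 bases, so that the ends of a model are not the ends of each read. Single-exon reads were 61.4 and 46.2% of that gene. Whether the Slc25a5 reads cross its introns can therefore not be read from these files. In Atp5g2 the single-exon reads were 54.6% (53 reads) and 56.2% (100 reads), nearly all under 1 model of 151 bases (chr15:102662864-102663014), and in Slc25a51 they were 21.3 and 10.1%. Atp5k had 0 single-exon reads of 558 and of 1074, which allows up to 0.659 and 0.343%.

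Single-exon and other reads were compared between the libraries by Fisher's exact test (two-sided), adjusted over the 2089 genes that reached 50 reads in both. At a minimum of 10 percentage points, 0 of the 28 members tested were called, beside 0.287% of all genes, while 9 of the 28 had an unadjusted p under 0.05 (212 of the 2089 genes). Without that minimum, 1 member passed, beside 0.814% of all genes. Atp5a1 had 53 of 1755 reads in replicate 1 (3.02%) and 21 of 2255 reads in replicate 2 (0.931%) on single-exon models (adjusted p = 0.00039, Fisher's exact test).

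The share of the main transcript was tested in the same way over 2163 genes. It was called different in 2 of 28 members, 0 of 16 Atp5 and 2 of 12 Slc25a genes, beside 1.85% of all genes. The main transcript of Slc25a3 held 175 of 323 reads of its gene in replicate 1 (54.2%) and 293 of 445 in replicate 2 (65.8%, adjusted p = 0.043, Fisher's exact test). That of Slc25a25 held 18 of 52 reads in replicate 1 (34.6%) and 56 of 80 in replicate 2 (70%, adjusted p = 0.0087, Fisher's exact test). Among spliced reads only, neither was called. Slc25a3 then had 57.8 and 67.7% (adjusted p = 0.15), and Slc25a25 had fewer than 50 spliced reads in replicate 1 and was not tested there.

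Slc25a3 has a pair of mutually exclusive exons in its coding sequence, of which the upstream one is known from heart and skeletal muscle and the downstream one from most other tissues. The 2 exons (chromosome 10, minus strand, mm10) are shown because the reads choose between them, with capitals at bases that do not match in their alignment.
Slc25a3 upstream exon, chr10:91122207-91122331: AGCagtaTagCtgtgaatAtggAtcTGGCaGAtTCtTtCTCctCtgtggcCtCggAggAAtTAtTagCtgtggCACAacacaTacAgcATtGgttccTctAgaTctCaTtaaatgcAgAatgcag
Slc25a3 downstream exon, chr10:91121922-91122043: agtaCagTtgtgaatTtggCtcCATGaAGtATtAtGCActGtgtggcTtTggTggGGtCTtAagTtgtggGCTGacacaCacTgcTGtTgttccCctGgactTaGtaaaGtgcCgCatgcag
The exons have 125 and 122 bases, of which 80 are identical in the alignment. By splice junctions, the upstream exon was used in 43 of 292 informative spliced reads in replicate 1 (14.7%, 10.9 to 19.3). In replicate 2 it was used in 18 of 415 (4.34%, 2.59 to 6.77). The shares differed by Fisher's exact test (p = 2.08e-06, adjusted over the 2 named exons p = 4.15e-06). A read with any junction of an exon counted for that exon. The downstream count thus took in an unannotated model, with 8 and 15 reads, whose exon runs from the downstream exon across the upstream one. On annotated transcripts alone the upstream shares were 15.1 and 4.44%. Most reads thus carried the downstream exon, 249 and 397 reads. The striated muscle markers were higher in replicate 1, by the sums given above, and their part in this share was not tested.

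Atp5c1 ends in 2 ways. When a 37-base exon (chr2:10056770-10056806) is included, the coding sequence ends inside it, and when it is skipped, as known from muscle, the sequence ends right after the junction with the last exon. The last 30 shared bases are shown in lower case and the bases of each form up to the stop codon in capitals.
Atp5c1, exon included: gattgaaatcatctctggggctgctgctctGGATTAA
Atp5c1, exon skipped: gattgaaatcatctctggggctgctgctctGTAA
The forms encode 298 and 297 codons before the stop. The exon was skipped in 238 of 441 reads in replicate 1 (54.0%, 49.2 to 58.7) and in 367 of 777 reads in replicate 2 (47.2%, 43.7 to 50.8). The intervals of the 2 libraries overlap, and Fisher's exact test gave p = 0.027, adjusted over the 2 named exons also p = 0.027. Each library thus held both forms, and the part of the muscle markers in this share was not tested either.

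**Figure D5:**
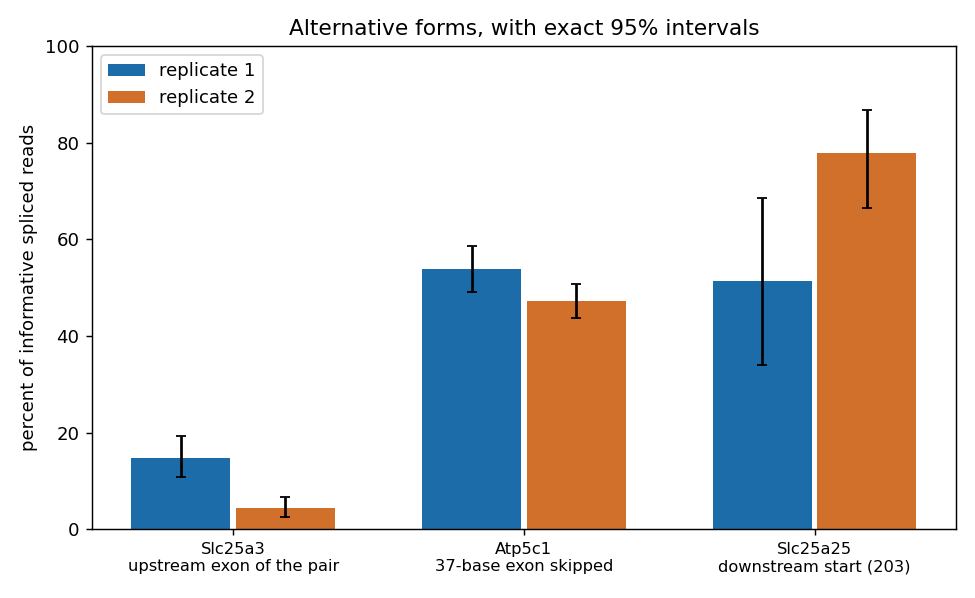
Share of the Slc25a3 upstream exon, of Atp5c1 reads that skip the 37-base exon and of Slc25a25 reads from the downstream start among those on its 2 main transcripts, in percent of informative spliced reads, with exact 95% intervals, replicate 1 on the left and replicate 2 on the right. Slc25a3 stands at 14.7 against 4.34%, Atp5c1 at 54.0 against 47.2% and Slc25a25 at 51.4 against 77.8%.

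The 2 main transcripts of Slc25a25 start 27440 bases apart, a comparison chosen after the values were seen. The one from the downstream start had 18 reads in replicate 1 and 56 in replicate 2, while the one from the upstream start had 17 and 16. The downstream start thus gave 51.4% (34.0 to 68.6) and 77.8% (66.4 to 86.7) of the reads on both. The 250 bases before each start are shown because the 2 transcripts begin there. They are from RefSeq (GRCm38.p6, minus strand), with starts 61 and 25 bases upstream of those of the GENCODE transcripts.
Slc25a25 downstream start, chr2:32424067-32424316: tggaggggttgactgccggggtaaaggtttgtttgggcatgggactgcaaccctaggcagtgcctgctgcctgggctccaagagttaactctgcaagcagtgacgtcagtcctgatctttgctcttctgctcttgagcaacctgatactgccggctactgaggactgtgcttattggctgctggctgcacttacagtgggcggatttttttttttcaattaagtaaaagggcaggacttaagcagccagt
Slc25a25 upstream start, chr2:32451471-32451720: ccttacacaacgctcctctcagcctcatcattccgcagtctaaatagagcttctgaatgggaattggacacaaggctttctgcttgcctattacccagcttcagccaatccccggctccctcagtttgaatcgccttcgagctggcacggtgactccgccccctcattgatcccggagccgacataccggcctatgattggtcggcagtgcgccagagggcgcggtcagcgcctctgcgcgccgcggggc
None of 4 motifs searched on both strands occurs in them. These were the core of the nuclear respiratory factor 1 (NRF-1) sequence, GCGC and again GCGC after any 2 bases, CCGGAAGT of ETS factors, TNAAGGTCA of estrogen-related receptors and AAGATGGC of YY1, none of which contains another.

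Promoter windows of 300 bases (250 before to 50 after a RefSeq start) were matched for 13 of 17 Atp5 and 33 of 42 Slc25a genes. The NRF-1 core was in 6 of the 13 Atp5 genes (Atp5c1, Atp5g2, Atp5g3, Atp5h, Atp5k and Atp5o) and in 2 of the 33 Slc25a genes (Slc25a3 and Slc25a10), beside 7.00% of 27025 genes with a window. AAGATGGC was in Atp5j, Atp5j2 and Slc25a3 (3.19% of all genes), CCGGAAGT in Atp5h and Slc25a20 (4.31%) and TNAAGGTCA in Atp5g3 (1.43%). The bases before the RefSeq starts of Atp5g2 and Atp5g3 show 2 of these matches, in capitals (GRCm38.p6, minus strand). The RefSeq start of Atp5g2 lies 80 bases downstream of the start of its main spliced GENCODE transcript. For Atp5g3 the RefSeq and GENCODE starts are the same.
Atp5g2, chr15:102671048-102671297: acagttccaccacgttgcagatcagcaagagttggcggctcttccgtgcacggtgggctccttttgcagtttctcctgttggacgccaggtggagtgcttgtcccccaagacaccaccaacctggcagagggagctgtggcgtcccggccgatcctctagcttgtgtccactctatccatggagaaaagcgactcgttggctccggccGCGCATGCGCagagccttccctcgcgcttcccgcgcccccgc
Atp5g3, chr2:73911327-73911576: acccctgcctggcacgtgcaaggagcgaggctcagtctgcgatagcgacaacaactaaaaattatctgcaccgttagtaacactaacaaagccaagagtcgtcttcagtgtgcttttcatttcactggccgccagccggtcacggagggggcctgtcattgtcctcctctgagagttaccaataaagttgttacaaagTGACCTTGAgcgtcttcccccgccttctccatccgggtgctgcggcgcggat
In Atp5g2 the capitals are the NRF-1 core, and in Atp5g3 they are TNAAGGTCA read on the opposite strand. The Atp5g2 match lies between the GENCODE and RefSeq starts, so it is downstream of the GENCODE start. A match in these windows is a description of the letters and not a binding site.

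Reads on the opposite strand were few. Antisense models overlapped 39 of the 59 genes, with 130 reads in replicate 1 and 146 in replicate 2, and 5 of these models were spliced. For the gene of the acylcarnitine carrier, Slc25a20, there were 15 and 31 antisense reads beside 80 and 111 of its own. For Slc25a3 there were 15 and 23, and for Slc25a37 11 and 5, more than its own 8 and 3. On the opposite strand Atp5f1 overlaps Wdr77 (51 and 51 reads) and Atp5j overlaps Gabpa (27 and 30 reads). The sources used here do not say how the strand of a read was set, so reads may be split between such partners.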

How the data were processed

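Per the notes in the deposit, each library was processed on its own against mm10 and GENCODE M21. TALON, which groups long reads into transcript models, is named in the source field of the deposited annotation files. The authors' deposited tables hold counts, that is whole numbers of reads for each model without normalization, and list the models with 1 read or more. The sources used here do not give the aligner, platform or tool versions. Exon number and model length are as deposited.

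Reads of all models of a gene were summed, without ERCC reads (2.24 and 2.11% of all reads). Totals of 593058 and 772037 reads set the CPM scale, so that 0 reads allow up to 5.06 and 3.89 CPM. Spliced models without annotation were joined across libraries where all introns were identical, and single-exon models without annotation were summed for each gene. Tests were the exact binomial test on gene reads (pseudocount 0.5 reads for the ratio) and Fisher's exact test on shares, both with Benjamini-Hochberg adjustment over all genes tested (scipy 1.17.1), and edgeR 4.0.16 in R 4.3.3 as an alternative, with 1 common dispersion estimated over both libraries as 1 group. They were run on simulated counts without spread between the libraries beyond counting error, which cannot show how they behave with such spread. Coding sequences were compared with annotated pseudogenes by BLAST+ 2.17.0. Alternatives were other totals, filters, fold minima, model classes and leaving out a library. All 59 members may be named, by rule, with listed partners and markers. Values of 1 member enter sums and counts but are not reported here. Members and lists were chosen with earlier results of these data known.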

Additional observations from a re-analysis of the deposited data

How the results depend on the processing

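Slc25a47 was called higher in replicate 1 under all 8 alternatives of the gene test. A fold minimum of 1.5 or none could not lose a gene already called. By edgeR's exact test its adjusted p was 0.045, close to the threshold. The number of genes called was 411 as reported, 124 by edgeR's exact test, 199 with at least 50 reads summed, 783 without a fold minimum and 273 with annotated transcript models only. The number of members called was 1 as reported, 4 with a fold minimum of 1.5 (also Slc25a5, Atp5l and Atp5h) and 13 without one. The summed CPM of the Atp5 genes was 14852 on annotated models, against 20057 as reported, and 18427 to 21687 with 1 library left out. The summed CPM of the Slc25a genes was 7191 with reads of annotated genes as totals, 4376 on annotated models and 4823 on spliced models, against 6751 as reported. Both model choices put replicate 1 (4438 and 4914) above replicate 2 (4313 and 4733). The sum was 6573 to 6930 with 1 library left out. Subunit c genes, in an alternative chosen after seeing the data, summed to 1496 CPM with their copies, and to 1131 to 1181 with 1 library left out. The single-exon share of Atp5 reads (2.24%) was 0.789% without models that TALON puts in its genomic class and 1.33% as a median over genes, and 1.82 to 2.66% with 1 library left out. That of Slc25a reads (28.5%) was 4.56 and 8.01% under the same 2 choices and 25.2 to 31.7% with 1 library left out. Without genomic-class models it was higher in replicate 1 (8.22 against 0.895%). That choice kept 222 single-exon reads of Slc25a4 in replicate 1, listed as an incomplete match. It removed 209 such reads in replicate 2, listed in the genomic class, so the order reflects the class given to a model. The number of genes with a different main transcript share (40) was 22 with 20 reads in each library, 80 without a minimum difference and 14 on spliced models, and members among them were 1 (Slc25a25), 3 and 0. With 100 reads it was 1 member (Slc25a3). A different single-exon share was found in 6 genes as reported and in 17 without a minimum difference. Of the 10 highest members, 6 remained per kb. No paired analysis was possible because there is only 1 group. Depth limits the 10 Slc25a genes under 5 reads in a library.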
